A study of Homo sapiens with 9 samples.

Results

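The proteasome subunit genes were the genes whose symbols consist of PSM, a letter from A to G and a number. Of the 19918 gene symbols counted, 48 met this rule, and 43 of them had enough counts to be tested. They encode the 20S core, the 19S regulatory particle, the activators and inhibitor that bind the core, and the chaperones that assemble core and 19S base. *PSMC3IP*, whose longer symbol begins in the same way, encodes no subunit and was not a member.

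RNA-seq counts came from VCaP, an established prostate cancer cell line, sequenced in 3 groups of 3 libraries. In every group, 100 pmol of siRNA was introduced by reverse transfection and cells were collected after 72 h. The siRNAs si025 and si033 were both directed at exon 1 of the long non-coding RNA *IGF1R-AS1*, and the control group received a control siRNA. *IGF1R-AS1* itself was not analysed here, so the extent of knockdown in these libraries was not measured. The study describes its replicates as biological, but the labels do not say whether the libraries of a group came from separate cultures, and p-values measure the spread between these libraries only.

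The proteasome degrades proteins that carry ubiquitin chains. Its 20S core is a barrel of alpha and beta rings with the active sites inside, and the 19S particle on its ends recognises, unfolds and feeds in the substrate through a base with a ring of ATPases and a lid that removes ubiquitin. Interferon-induced beta subunits replace the standard active sites in immunoproteasomes, and when proteasome capacity is short the factor NFE2L1 raises transcription of subunit genes through antioxidant response elements in their promoters.

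Library totals lay between 11649811 and 28492259 counts. The 11 VCaP and prostate luminal markers were present at 1 CPM (count scaled to a common library size) or more in every library, with summed levels of 8719 to 8977 CPM in control, 10491 to 10811 with si025 and 7487 to 7841 with si033. The 7 leukocyte, endothelial and fibroblast markers summed to between 2.48 and 4.996 CPM over all libraries, and *CD3E* and *MS4A1* were at 0 in all of them. The part of these markers in the results was not tested.

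Promoter sequences of RefSeq (GRCh38.p14; 250 bases before to 50 bases after an annotated start) were matched by symbol for 42 of the 48 members, and *PSMA7*, *PSMB1*, *PSMB6*, *PSMB7*, *PSMD4* and *PSMG3* had none. The letters TGACNNNGC, the core of the antioxidant response element, were searched on both strands. They occurred in 15 of the 51 windows of members (29.4%) and in 4687 of all 35116 windows (13.3%). Of the 18 members with a window that were called lower with both siRNAs, 5 held a match (*PSMA4*, *PSMD1*, *PSMD12*, *PSME4* and *PSMG1*), as did 8 of the other 19 tested members. The E-box letters CACGTG occurred in 3 member windows (5.88%, against 7.26% of all windows) and CCAAT in 20 (39.2%, against 34.6%). A match describes the letters only. The windows of 4 members are shown because they hold a match and belong to the members with the largest decrease with si025 (*PSMD1*) and with si033 (*PSMG1*), the highest level (*PSMA4*) and the largest increase (*PSMD5*), with TGACNNNGC in capitals:
PSMD1 (chr2:231056617-231056916, plus strand): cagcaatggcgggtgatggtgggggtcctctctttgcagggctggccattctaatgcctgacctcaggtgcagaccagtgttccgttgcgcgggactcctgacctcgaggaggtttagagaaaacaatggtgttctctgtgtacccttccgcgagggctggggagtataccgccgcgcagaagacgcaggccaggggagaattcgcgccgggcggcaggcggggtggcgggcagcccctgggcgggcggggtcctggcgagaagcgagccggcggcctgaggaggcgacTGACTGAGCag
PSMG1 (chr21:39183402-39183701, minus strand): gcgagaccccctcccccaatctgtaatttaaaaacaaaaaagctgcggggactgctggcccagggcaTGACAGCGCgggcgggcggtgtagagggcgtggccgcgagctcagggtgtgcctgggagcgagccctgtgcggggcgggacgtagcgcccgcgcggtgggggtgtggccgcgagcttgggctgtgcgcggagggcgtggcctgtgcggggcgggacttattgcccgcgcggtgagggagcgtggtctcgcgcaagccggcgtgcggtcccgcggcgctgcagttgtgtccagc
PSMA4 (chr15:78540536-78540835, plus strand): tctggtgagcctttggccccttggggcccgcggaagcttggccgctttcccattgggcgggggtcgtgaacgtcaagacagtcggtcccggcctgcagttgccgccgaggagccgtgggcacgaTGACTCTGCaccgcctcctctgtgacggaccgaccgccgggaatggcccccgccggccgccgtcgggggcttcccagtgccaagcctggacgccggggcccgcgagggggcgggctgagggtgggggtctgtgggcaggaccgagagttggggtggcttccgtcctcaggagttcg
PSMD5 (chr9:120842873-120843172, minus strand): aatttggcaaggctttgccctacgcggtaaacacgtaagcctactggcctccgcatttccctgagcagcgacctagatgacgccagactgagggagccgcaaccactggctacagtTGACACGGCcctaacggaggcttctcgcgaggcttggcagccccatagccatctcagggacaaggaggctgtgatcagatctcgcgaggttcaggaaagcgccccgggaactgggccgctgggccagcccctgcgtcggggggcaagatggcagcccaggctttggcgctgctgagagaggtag
The match lay 39 bases after the start in *PSMD1*, and 183, 126 and 134 bases before it in *PSMG1*, *PSMA4* and *PSMD5*. Of the 3 windows of *PSMA4*, 1 held a match and is the one shown. Because these windows were chosen for holding a match, nothing is read from them about the direction of change.

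Proteasome genes were called lower more often than higher with both siRNAs against *IGF1R-AS1*. With si025, 30 of the 43 tested members were called lower than control and 4 higher, where a call is an adjusted *p* value below 0.05 in edgeR's quasi-likelihood test. Among all 12810 genes tested, 28.8% were called lower and 32.9% higher. With si033, 22 members were lower and 1 higher, against 27.8% and 26.9% of all genes. The median log2 change (log2 of the fold change against control) of the members was -0.18 with si025 and -0.11 with si033, while that of all genes was 0.02 and 0.00. The share of all counts taken by the members was 0.584% ± 0.0079 in control, 0.533% ± 0.016 with si025 and 0.555% ± 0.0084 with si033 (SD, n = 3 each), and the groups did not overlap with control. In bulk RNA, fewer cells of a kind and less RNA per cell cannot be told apart.

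The changes were small, between -0.55 and 0.39 with si025 and between -0.47 and 0.26 with si033 on the log2 scale. Both comparisons used the same control libraries. Side by side, 20 members were lower with both siRNAs, 10 with si025 alone, 2 with si033 alone (*PSMD4* and *PSMD13*), 3 were higher with si025 alone, 1 was higher with both and 7 were called with neither. No member was called in opposite directions. Such joint counts were not made for all genes, and the shared control libraries tie the 2 comparisons, so nothing is read from the overlap. The 4 increases with si025 were the less stable part, since 1 was left without si025 replicate 2 and 2 without control replicate 2, whereas leaving out any single library left between 24 and 30 decreases. Of the 30 decreases with si025, 21 were called in all 16 alternative analyses, as were 14 of the 22 with si033. Offsets for gene length and GC content moved the split of all called genes with si025 from 53.4% higher to 42.7% higher, and under them 28 members were lower and 4 higher. The background moved too: 5045 of all 12810 genes were lower under the offsets, against 3688 without them. The median log2 change under the offsets was -0.05 for all genes and -0.15 for the members.

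**Figure D1:**
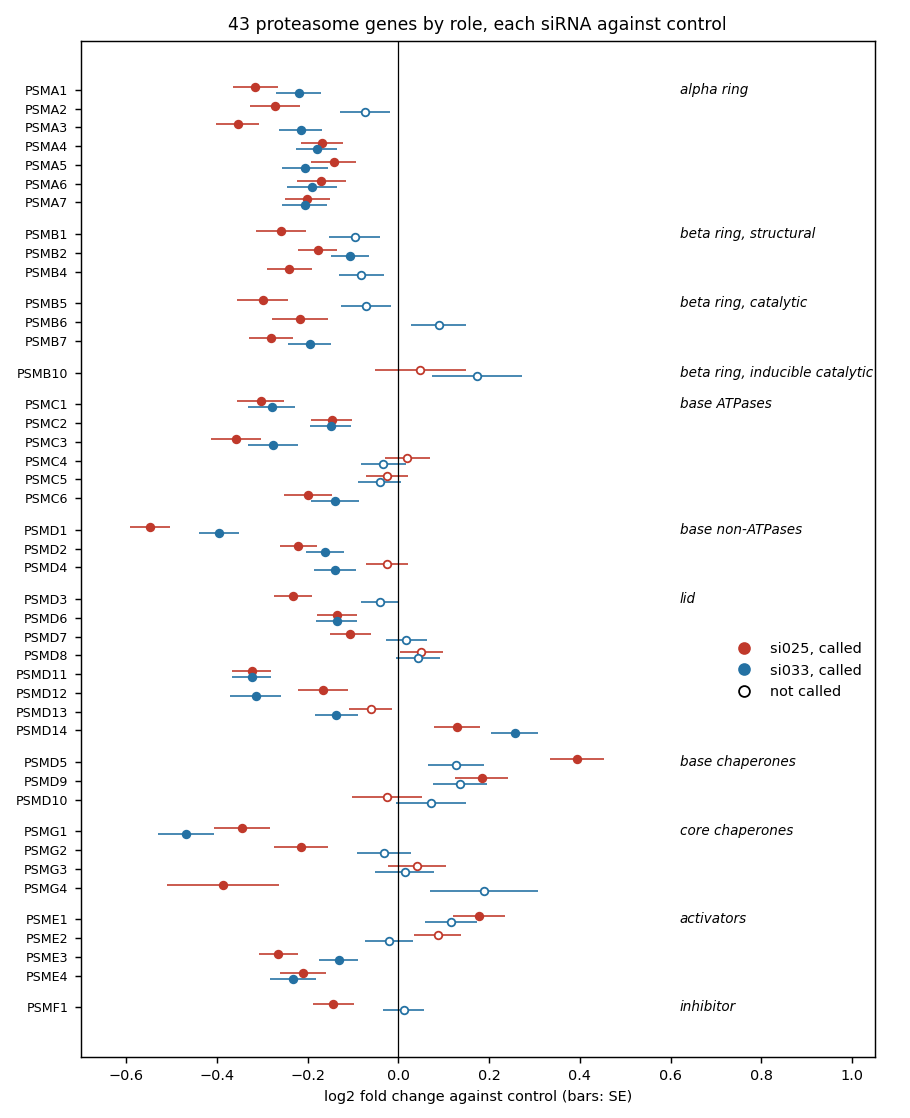
Log2 fold change against control (x axis, bars show the SE) of the 43 tested proteasome genes (y axis), grouped by role, with si025 in red and si033 in blue; filled points were called. Most points lie left of 0, and the filled points to the right are *PSMD14*, *PSMD5*, *PSMD9* and *PSME1*.

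Compared per length, as CPM per kilobase of exon (RPKM), core genes were the most abundant members. In control cells *PSMA4* stood at 277 RPKM, *PSMB4* at 235 and *PSMA7* at 225, all at or above the 99th percentile of the 19918 genes. *PSMD3* (124 RPKM) and *PSMD8* (122 RPKM) of the lid were the highest 19S genes, and neighbours this close did not differ beyond the spread between libraries. At the low end were the assembly chaperones *PSMD5* (6.44 RPKM) and *PSMG4* (1.12 RPKM), with long annotated exon lengths of 7338 and 7349 bases. In CPM, *PSMD5* (47.2) stood above *PSMD9* (36.5), *PSMD10* (31.2), *PSMG3* (26.2) and *PSMB10* (9.74), so its place depends on that length. The mean over the 7 alpha ring genes was 134 ± 3.95 RPKM in control, 114 ± 6.27 with si025 and 119 ± 4.09 with si033. Over the 6 measured standard beta genes it was 126 ± 2.15, 105 ± 6.94 and 118 ± 4.08 RPKM, and over the 6 base ATPases 45.2 ± 1.07, 41.4 ± 0.962 and 41.6 ± 0.505 RPKM (SD, n = 3 each). Every si025 and si033 library lay below every control library in these 3 classes. The mean of the 11S genes *PSME1* and *PSME2* ran the other way, from 57.5 ± 1.54 RPKM in control to 63.3 ± 4.17 with si025 and 60.2 ± 1.94 with si033, with both overlapping control.

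**Figure D2:**
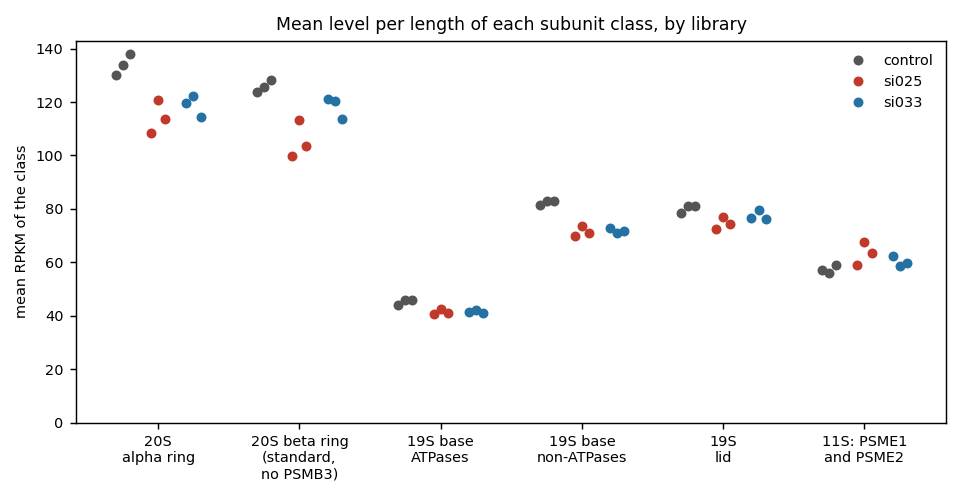
Mean level per length (RPKM, y axis from 0) of 6 classes of proteasome genes (x axis) in each of the 9 libraries, with control in grey, si025 in red and si033 in blue. In the alpha ring, beta ring, base ATPase and base non-ATPase classes the control points lie above those of both siRNAs.

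In the alpha ring, whose subunits gate entry to the core, 7 of 7 genes were lower with si025 and 6 of 7 with si033. Of all genes, 28.8% and 27.8% were called lower. *PSMA3* had the largest change. It measured 129, 128 and 134 CPM in the control libraries, 100, 106 and 101 CPM with si025 and 113, 118 and 108 CPM with si033. The 3 groups did not overlap. Its log2 change was -0.35 with si025 (SE 0.05, adjusted *p* = 9.7e-07) and -0.22 with si033 (SE 0.05, adjusted *p* = 0.000554). The calls of *PSMA5* and *PSMA6* with si025, and that of *PSMA6* with si033, were lost without control replicate 3 (adjusted *p* from 0.0587 to 0.104). *PSMA5* with si025 also lost its call without si025 replicate 3 (0.0977) and *PSMA6* with si033 without si033 replicate 3 (0.0687). Under offsets for gene length and GC content, the si025 calls of *PSMA4* (from -0.17 to -0.036, adjusted *p* = 0.384) and *PSMA5* (-0.083, adjusted *p* = 0.1) were lost. *PSMA2* was the exception with si033, at 211 ± 10.6 CPM in control and 201 ± 10.9 CPM with si033 (log2 change -0.07, adjusted *p* = 0.267). The testis form *PSMA8* had 0 counts in every library, which allows a level of up to 0.105 to 0.258 CPM depending on library depth.

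In the beta ring, 4 of the 6 measured standard genes (*PSMB1*, *PSMB4*, *PSMB5* and *PSMB6*) were lower with si025 than with si033, a call made for 29.7% of all genes. The 3 measured structural genes were all lower with si025 (28.8% of all genes). With si033 *PSMB2* alone was called lower (log2 change -0.11, adjusted *p* = 0.0382; 27.8% of all genes were called lower). That call was lost without any one of the control libraries, si025 replicate 3 or si033 replicate 3 (adjusted *p* from 0.0523 to 0.177). *PSMB1* had 155, 152 and 163 CPM in control, 121, 145 and 128 CPM with si025 and 147, 153 and 142 CPM with si033. Its si025 libraries were all below control, and its si033 libraries overlapped both other groups. The log2 change was -0.26 with si025 (SE 0.06, adjusted *p* = 0.000331) and -0.10 with si033 (SE 0.06, adjusted *p* = 0.149).

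Of the standard active sites, *PSMB5* carries the chymotrypsin-like activity that proteasome inhibitors used in myeloma block (chromosome 14, 23016543 to 23035220, minus strand, hg38). It measured 125, 130 and 126 CPM in control, 92.7, 111 and 104 CPM with si025, and 125, 124 and 115 CPM with si033. The si025 libraries lay below all others, while the si033 libraries lay only just below control. The log2 change was -0.30 with si025 (SE 0.06, adjusted *p* = 7.4e-05) and -0.07 with si033 (SE 0.06, adjusted *p* = 0.294), and the difference between the siRNAs was -0.23 (SE 0.06, adjusted *p* = 0.0013).

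*PSMB6* carries the caspase-like site (chromosome 17, 4796144 to 4798503, plus strand). Its levels were 56.2, 53.8 and 57.2 CPM in control, 46.6, 51.8 and 45.6 CPM with si025, and 64.2, 58.0 and 56.9 CPM with si033. With si025 all 3 libraries were below control, and with si033 they overlapped it from above. The log2 change was -0.22 with si025 (SE 0.06, adjusted *p* = 0.00376) and 0.09 with si033 (SE 0.06, adjusted *p* = 0.224), a difference of -0.31 (SE 0.06, adjusted *p* = 0.000143).

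*PSMB7*, the trypsin-like site (chromosome 9, 124353465 to 124415473, minus strand), was lower with both siRNAs. It had 169, 168 and 173 CPM in control, 136, 150 and 134 CPM with si025, and 153, 148 and 146 CPM with si033. Both groups lay wholly below control. The log2 changes were -0.28 (SE 0.05, adjusted *p* = 2.1e-05) and -0.20 (SE 0.05, adjusted *p* = 0.00135).

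Of the inducible active sites, only *PSMB10*, which takes the place of *PSMB7* in immunoproteasomes, was measured (chromosome 16, 67934504 to 67936877, minus strand). It was low, at 9.60, 9.93 and 9.70 CPM in control, 8.72, 10.7 and 10.4 CPM with si025, and 11.3, 11.1 and 10.7 CPM with si033. The si025 libraries overlapped control and the si033 libraries lay above it. Neither log2 change passed the test (0.05 with si025, SE 0.10, adjusted *p* = 0.697, and 0.17 with si033, SE 0.10, adjusted *p* = 0.15). Per length, *PSMB10* made up 5.47% ± 0.155 of the sum of *PSMB7* and *PSMB10* in control, 6.70% ± 0.597 with si025 and 6.97% ± 0.0856 with si033 (SD, n = 3 each). The si025 and si033 groups lay above control, with an exact two-sided permutation *p* of 0.10 each, the smallest that 3 against 3 libraries can give. The share also rises when *PSMB7* falls. *PSMB7* changed by -17.7% with si025 and -12.7% with si033, and *PSMB10* by 3.4% and 12.8%.

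**Figure D3:**
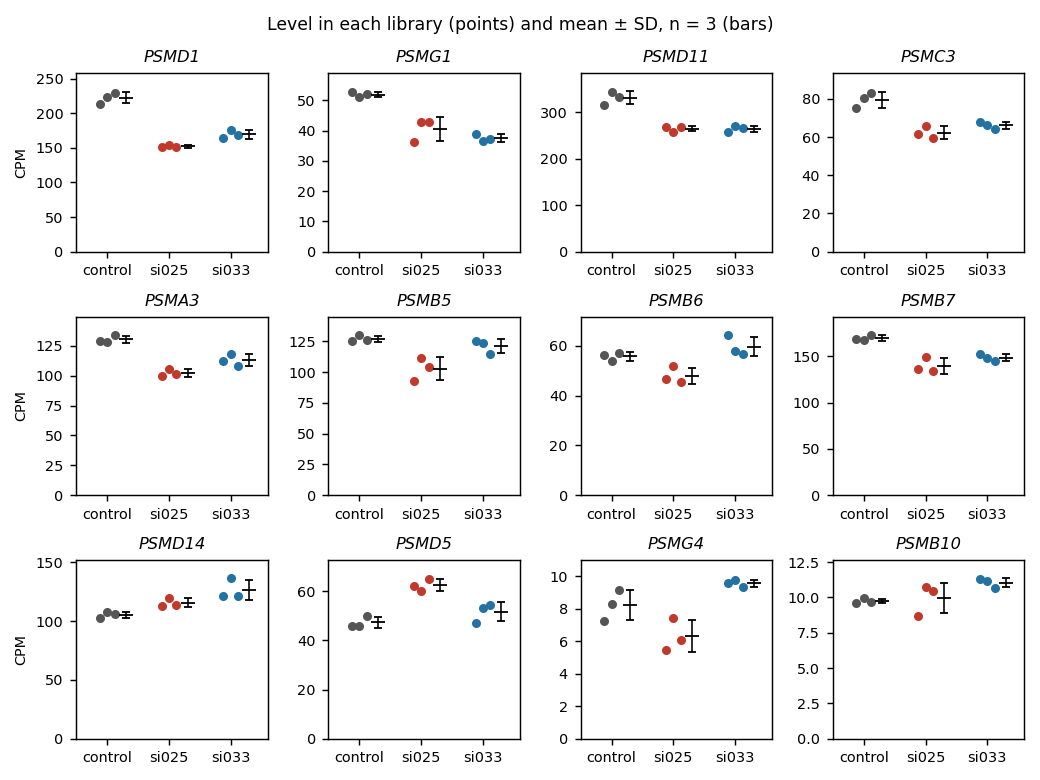
Level in CPM (y axes from 0) of 12 proteasome genes in each library, as points, with the mean ± SD of 3 libraries beside them, for control (grey), si025 (red) and si033 (blue). *PSMD1*, *PSMG1*, *PSMD11*, *PSMC3*, *PSMA3* and *PSMB7* are lower with si025 and si033, *PSMB5* and *PSMB6* are called lower in si025, *PSMD14* lies higher with both, and *PSMD5* lies higher with si025 and overlaps control with si033.

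Of the remaining beta genes, 3 were listed at or near 0. *PSMB3*, a structural subunit that every 20S core contains (chromosome 17, 38752713 to 38764231, plus strand), had 1 count over the 9 libraries, and the inducible *PSMB8* and *PSMB9* (chromosome 6, 32840717 to 32844935, minus strand, and 32854161 to 32859851, plus strand) had 0. All merged exons of 30 bases or more of these genes, 6 of 6 for *PSMB3*, 7 of 7 for *PSMB8* and 6 of 6 for *PSMB9*, occurred unchanged on an alternate contig of hg38, which holds another copy of part of a chromosome. No exon of the other 45 members did. Within 500 kb of *PSMB8*, 28 of 33 genes had at most 9 counts over the 9 libraries, and within 500 kb of *PSMB3*, 11 of 23 did, against 25.8% of all genes. The share around *PSMB3* was not particular to it. Among tested members it was higher around *PSMB1* (3 of 6) and *PSMA2* (2 of 4), and *PSMD1* came next (5 of 12). Among genes picked by name rather than by these windows, *BAG6* and *DDX39B* had 0 to 77 and 2 to 22 counts per library, and *MRPL45* had 0 to 4. Whether the authors' alignment used these contigs is not given in the sources used here, and their part in the zeros was not tested. The levels of *PSMB3*, *PSMB8* and *PSMB9* are therefore treated as not measured. *PSMB11*, the thymus form, also had 0 counts, and its single exon was not on an alternate contig.

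**Figure D4:**
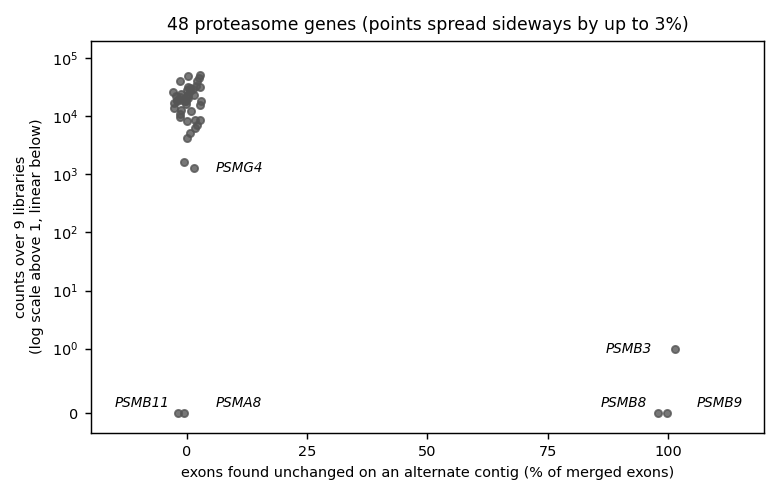
Counts over the 9 libraries (y axis, log scale above 1 and linear below) against the percentage of merged exons found unchanged on an alternate contig (x axis) for the 48 proteasome genes. *PSMB3*, *PSMB8* and *PSMB9* are the only genes at 100% and have at most 1 count, while the 43 tested genes, all at 0%, have between 1303 and 50422.

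In the 19S base, the ATPases *PSMC1*, *PSMC2*, *PSMC3* and *PSMC6* were lower with both siRNAs, and *PSMC4* and *PSMC5* were called with neither (log2 changes from -0.04 to 0.02). *PSMC3* changed most with si025 (with si033, *PSMC1* and *PSMC3* both changed by -0.28), from 75.0, 80.6 and 83.0 CPM in control to 61.7, 65.9 and 59.4 CPM with si025 and 68.0, 66.2 and 64.1 CPM with si033. All si025 and si033 libraries lay below control. The log2 changes were -0.36 (SE 0.05, adjusted *p* = 5.6e-06) and -0.28 (SE 0.05, adjusted *p* = 0.000173). With si033, the call of *PSMC6* was lost without control replicate 1 or 3 or si033 replicate 1 or 3 (adjusted *p* from 0.0786 to 0.226) and under the offsets (0.156) or upper quartile normalization (0.0749), and that of *PSMC2* without control replicate 2 or 3 (0.0506 and 0.0714). *PSMC1* has 13 named pseudogenes in RefSeq and 20 further members have at least 1, so their counts are less certain.

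The largest decrease of any member was that of *PSMD1*, the large scaffold of the base (chromosome 2, 231056864 to 231172827, plus strand), whose promoter is shown above. It measured 214, 223 and 230 CPM in control, 151, 154 and 151 CPM with si025, and 164, 175 and 168 CPM with si033. The 3 groups were fully separate. The log2 change was -0.55 with si025 (SE 0.04, adjusted *p* = 2.55e-10), a change of -31.6%, and -0.40 with si033 (SE 0.04, adjusted *p* = 8.32e-08), a change of -24.0%. The other large base subunit, *PSMD2*, was also lower with both (-0.22 and -0.16). The ubiquitin receptor *PSMD4* was lower with si033 only by its call (log2 change -0.14, adjusted *p* = 0.0139), at -0.03 with si025 (adjusted *p* = 0.652), and the si033 call was lost without control replicate 1 or 3 or si033 replicate 3 (adjusted *p* from 0.054 to 0.0693).

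Of the lid genes, 5 of 8 were lower and 1 higher with si025 (28.8% and 32.9% of all genes). With si033, 4 were lower and 1 higher (27.8% and 26.9% of all genes). *PSMD11*, a subunit that braces the lid against the core, had 316, 343 and 333 CPM in control, 269, 258 and 267 CPM with si025, and 257, 270 and 266 CPM with si033. Both groups lay below control and overlapped each other. Its log2 change was -0.32 with each siRNA (SE 0.04, adjusted *p* = 7.57e-07 and 1.09e-06).

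*PSMD14*, the deubiquitinase of the lid (chromosome 2, 161308275 to 161411717, plus strand), was the one member called higher with both siRNAs. It had 103, 108 and 106 CPM in control, 113, 120 and 114 CPM with si025, and 121, 136 and 122 CPM with si033. All si025 and si033 libraries lay above control. The log2 change was 0.26 with si033 (SE 0.05, adjusted *p* = 0.000194). With si025 it was 0.13 (SE 0.05, adjusted *p* = 0.0313), a call lost in 6 of 16 alternatives, among them without each control library in turn (adjusted *p* from 0.0521 to 0.111) and without si025 replicate 2 (adjusted *p* = 0.108). *PSMD8* was called with neither siRNA, at log2 changes of 0.05 and 0.04. The si025 call of *PSMD7* was lost in 6 of 16 alternatives, among them without control replicate 3 (adjusted *p* = 0.229). That of *PSMD12* was lost without control replicate 3 (0.0612) or si025 replicate 1 (0.0601), and that of *PSMD6* without si025 replicate 1 (0.0518). The si033 call of *PSMD6* was lost without control replicate 3 (0.0771). That of *PSMD13* was lost without control replicate 3 (0.113) or si033 replicate 3 (0.138) and under upper quartile normalization (0.0531).

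With si025 the called changes of the base chaperones were upward and those of the core chaperones downward. With si033 no base chaperone was called, and *PSMG1* was the only core chaperone called. The base chaperones *PSMD5*, *PSMD9* and *PSMD10* were not called lower with either siRNA (0 of 3, also at an unadjusted *p* below 0.05 and with DESeq2). Of all genes, 28.8% were called lower with si025 and 27.8% with si033. *PSMD5* (chromosome 9, 120798318 to 120843021, minus strand) rose most, from 45.8, 46.0 and 49.9 CPM in control to 62.1, 60.2 and 64.9 CPM with si025, and it had 47.1, 53.2 and 54.4 CPM with si033. The si025 libraries were above all others, and the si033 libraries overlapped control. Its log2 change was 0.39 with si025 (SE 0.06, adjusted *p* = 5.42e-06) and 0.13 with si033 (SE 0.06, adjusted *p* = 0.0834), and the latter was called without control replicate 3 (adjusted *p* = 0.0394) and without si033 replicate 1 (adjusted *p* = 0.0121). *PSMD9* was also higher with si025 (0.18, adjusted *p* = 0.00922). This call was lost without si025 replicate 2 (adjusted *p* = 0.0533) and with DESeq2 (adjusted *p* = 0.0511).

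Among the chaperones of the core, *PSMG1* (chromosome 21, 39175446 to 39183514, minus strand) fell with both siRNAs. It measured 52.6, 51.0 and 52.0 CPM in control, 36.1, 42.8 and 42.7 CPM with si025, and 38.8, 36.4 and 37.3 CPM with si033. All si025 and si033 libraries lay below control. The log2 changes were -0.34 (SE 0.06, adjusted *p* = 3.88e-05) and -0.47 (SE 0.06, adjusted *p* = 1.22e-06). Its binding partner *PSMG2* was lower with si025 alone (-0.21, adjusted *p* = 0.0034), and under offsets for gene length and GC content the change was -0.10 and not called (adjusted *p* = 0.0502).

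*PSMG4*, another core chaperone and the least abundant tested member, had 7.25, 8.26 and 9.12 CPM in control, 5.45, 7.39 and 6.10 CPM with si025, and 9.56, 9.75 and 9.35 CPM with si033. Its si025 libraries overlapped control and its si033 libraries lay above both. The log2 change was -0.39 with si025 (SE 0.12, adjusted *p* = 0.00947, not called without control replicate 3, adjusted *p* = 0.0988) and 0.19 with si033 (SE 0.12, adjusted *p* = 0.188). *PSMG3* was called with neither (0.04 and 0.01).

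Of the activators that cap the core in place of 19S, *PSME3*, the nuclear form, and *PSME4* were lower with both siRNAs. *PSME3* had 272, 287 and 270 CPM in control, 237, 229 and 224 CPM with si025, and 255, 255 and 247 CPM with si033, and the 3 groups were separate. Its log2 changes were -0.26 (SE 0.04, adjusted *p* = 1.03e-05) and -0.13 (SE 0.04, adjusted *p* = 0.0112), the second lost without control replicate 2 (adjusted *p* = 0.0926) and without si033 replicate 3 (adjusted *p* = 0.0627). The interferon-inducible *PSME1* was higher with si025 (0.18, adjusted *p* = 0.00979, not called without control replicate 2 or si025 replicate 2, adjusted *p* = 0.0657 and 0.0665), and *PSME2* was called with neither (0.09 and -0.02). The inhibitor *PSMF1* had 132, 139 and 143 CPM in control, 123, 127 and 125 CPM with si025, and 140, 142 and 136 CPM with si033. It was lower with si025 alone (-0.14, SE 0.05, adjusted *p* = 0.00877), a call lost without control replicate 3 (adjusted *p* = 0.0556).

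The siRNAs were then compared directly. Relative to si033, 14 of the 43 members were lower with si025 and 3 (*PSMD4*, *PSMD5* and *PSMD12*) higher, against 29.7% and 31.2% of all genes, with a median of -0.06 (all genes 0.00). The median was -0.0082 without si033 replicate 2, and the 3 higher calls became 1 without si025 replicate 3 and 5 without si025 replicate 1. The call of *PSMD4* was lost in 11 of the 16 alternatives and that of *PSMD12* in 4. Of the 14 core genes measured, 6 were lower and none higher (median -0.11). At an unadjusted *p* below 0.05, and with DESeq2, the count of higher core genes was also 0. In the 19S particle 4 of 17 were lower and 2 higher (median 0.00), and none of the 6 base ATPases was called (0 at an unadjusted *p* below 0.05 and 0 with DESeq2). The gap between core and 19S was not tested. The largest difference downward was that of *PSMG4* (-0.58, SE 0.12, adjusted *p* = 0.00028) and the largest upward that of *PSMD5* (0.27, SE 0.06, adjusted *p* = 0.000485). For *PSMD11* the difference was 0.00 (SE 0.04, adjusted *p* = 0.999).

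Subunits and partners of the proteasome that lie outside the symbol rule were also called lower more often than higher. Of 16, 10 were lower with si025 and 8 with si033 (28.8% and 27.8% of all genes), and none was higher (0 also at an unadjusted *p* below 0.05; 32.9% and 26.9% of all genes). The ubiquitin receptor *ADRM1* of the base had 113, 106 and 106 CPM in control, 79.7, 87.7 and 83.6 CPM with si025, and 88.1, 83.0 and 84.0 CPM with si033. All its si025 and si033 libraries were below control (log2 changes -0.37 and -0.35, adjusted *p* = 1.12e-06 and 3.43e-06). *ECPAS*, counted under its earlier symbol *KIAA0368* a large protein that binds proteasomes, fell from 940 ± 4.52 CPM to 689 ± 14.3 with si025 and 584 ± 13.9 with si033 (log2 changes -0.45 and -0.69, adjusted *p* = 5.37e-10 and 5.77e-13). *ZFAND5*, a proteasome-binding activator, fell from 312 ± 6.51 CPM to 196 ± 10.7 with si025 and to 282 ± 7.91 with si033 (-0.67 and -0.15, adjusted *p* = 1.21e-11 and 0.00818).

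*SEM1*, the smallest lid subunit, counted as *SHFM1*, was lower with si025 alone, at 67.5 ± 6.63 CPM in control, 54.5 ± 4.01 with si025 and 70.8 ± 4.85 with si033 (-0.32, adjusted *p* = 0.000363), and under offsets for gene length and GC content this call was lost (adjusted *p* = 0.309). The core maturation factor *POMP* was called with neither, at 88.6 ± 1.93, 83.1 ± 7.74 and 92.4 ± 1.93 CPM.

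Of the 4 genes that control proteasome transcription, 3 were lower and 1 higher with each siRNA, where 28.8% and 32.9% of all genes were called lower and higher with si025 and 27.8% and 26.9% with si033. With so few genes nothing is read from these counts. *NFE2L1* itself was lower with si025, at 226 ± 6.81 CPM in control and 196 ± 1.75 CPM with si025 (log2 change -0.20, SE 0.04, adjusted *p* = 0.000249). The si033 libraries stood at 242 ± 5.38 CPM (0.10, SE 0.04, adjusted *p* = 0.0481), a call that 9 of 16 alternatives lost, among them without control replicate 1 or 3, si025 replicate 3 or si033 replicate 1 or 2 (adjusted *p* from 0.0647 to 0.151) and under offsets for gene length and GC content (0.02, adjusted *p* = 0.591). *DDI2*, the protease that activates NFE2L1, had 18.8, 21.6 and 18.97 CPM in control, 10.8, 7.54 and 10.3 CPM with si025, and 16.5, 15.6 and 17.1 CPM with si033. Every si025 and si033 library was below control. Its log2 change was -1.06 with si025 (SE 0.10, adjusted *p* = 5.53e-09) and -0.26 with si033 (SE 0.10, adjusted *p* = 0.0263, lost without control replicate 2 at adjusted *p* = 0.152 and without si033 replicate 2 at 0.0758). *NGLY1*, which removes sugars from NFE2L1, moved in opposite directions, from 94.9 ± 1.57 CPM to 104 ± 0.801 with si025 (0.14, adjusted *p* = 0.0106, not called without control replicate 3, adjusted *p* = 0.0509) and 72.1 ± 1.90 with si033 (-0.40, adjusted *p* = 1.93e-07).

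Of 13 tested members taken here as MYC targets, 10 were lower with si025 and 7 with si033 (28.8% and 27.8% of all genes). *PSMD14* was the 1 higher with each (32.9% and 26.9% of all genes). Their median log2 changes were -0.18 and -0.11, the same to 2 decimals as for all tested members.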

How the data were processed

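RNA-seq libraries of VCaP cells (3 groups of 3, assigned by sample title) were analysed. According to the study's methods, the authors aligned trimmed paired-end reads to GRCh38. The submitters' processing notes name HISAT2 2.1.0, and per the file headers the deposited values are whole-number counts of sense-strand read pairs over exons by gene symbol, made with featureCounts 1.5.2 and a RefSeq hg38 annotation, whereas the methods name GENCODE. The counts were not normalized. Read pairs with several alignments are not counted by default, which affects genes with near-identical copies. The labels name a Promega RNA kit and the methods a Qiagen kit.

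Library totals of 11649811 to 28492259 counts set the counting precision. Libraries of a group differed beyond sampling noise (chi-square per degree of freedom 1.68 to 5.06), so no library was merged. edgeR 4.0.16 (R 4.3.3) was run with TMM scaling, filterByExpr and 1 quasi-likelihood fit of 3 group means. Benjamini-Hochberg adjustment ran over 12810 genes, and a gene was called at an adjusted *p* below 0.05. The biological coefficient of variation was 4.13%. CPM and RPKM used TMM-scaled library sizes and the deposited exon lengths. In the alternatives, DESeq2 1.42.0 and mgcv 1.9.3 (offsets) were used, besides 2 other scalings, no filter, a replicate block, 2-group fits and leaving out each library. A floor of 3 counts was used for a count of 0, covering counting error only.

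Members were taken by symbol. Members, role groups and other lists were chosen with earlier results of these data known. Full values are given for the catalytic subunits and for the member of each role with the largest called change, plus those with the largest differences between siRNAs. *PSMD14* was added because it was the member higher with both. Of the lists of related genes, those with the largest called change in each direction are named. Merged exons (RefSeq hg38, from the deposited coordinates) were searched as exact text, on both strands, in 261 alternate contigs. GENCODE 44 held a gene of the same symbol at the same place for 48 of 48 members.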

Additional observations from a re-analysis of the deposited data

Results flagged for a closer look

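In the direct contrast of edgeR's quasi-likelihood test, 17 of the 43 tested members differed between si025 and si033, as did 7801 of all 12810 genes. Lower with si025 were 32.6% of the members and 29.7% of all genes, and higher were 6.98% and 31.2%. Values are given here for the 9 of these 17 members that were chosen for full values by the rule in the methods. The difference, as a log2 value, was negative, meaning lower with si025, for *PSMG4* (-0.58), *PSMB6* (-0.31), *PSMB5* (-0.23), *PSMB1* (-0.16), *PSMF1* (-0.15), *PSMD1* (-0.15), *PSMA3* (-0.14) and *PSME3* (-0.13). It was positive for *PSMD5* (0.27). The adjusted *p* values were 0.00028 for *PSMG4*, 0.000143 for *PSMB6*, 0.0013 for *PSMB5*, 0.0152 for *PSMB1*, 0.00524 for *PSMF1*, 0.00513 for *PSMD1*, 0.016 for *PSMA3*, 0.00954 for *PSME3* and 0.000485 for *PSMD5*. The calls of *PSMG4*, *PSMB6*, *PSMB5*, *PSMF1*, *PSMD1* and *PSMD5* held in all 16 alternative analyses. The call of *PSMA3* was lost without si025 replicate 1 or 3 or si033 replicate 2 (adjusted *p* from 0.0509 to 0.0774) and under offsets for gene length and GC content (-0.035, adjusted *p* = 0.406), that of *PSMB1* without the same libraries (0.0602 to 0.103), and that of *PSME3* without si025 replicate 3 (0.0574).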

How the results depend on the processing

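The counts of proteasome genes called lower and the medians with each siRNA against control kept their direction under all 16 alternatives, and the lower counts stayed within a factor of 1.5. The small counts of higher calls moved more. With si025 the 4 higher calls became 2 with DESeq2 and 1 to 4 when single libraries were left out. With si033 the 1 higher call became 4 with upper quartile scaling, 2 with offsets for gene length and GC content, and 1 to 2 when libraries were left out. In si025 against si033 the 3 higher calls became 1 with DESeq2, 1 when only both groups entered the fit, 6 with the offsets and 1 to 5 when libraries were left out, and the median ranged from -0.069 to -0.0082 without single libraries. Of the 2639 values of single genes under alternatives, 2513 kept their side of the threshold, 99 lost a call, 27 gained one and 0 changed direction. The causes were not tested. Replicate numbers did not pair the libraries, since deviations of same-numbered libraries correlated at -0.0214 to 0.0729. A replicate block gave 30 lower and 4 higher members with si025 and 22 and 1 with si033, as without it. Counts of 1303 or more per tested member over the 9 libraries limit the precision of the least abundant ones, *PSMG4* and *PSMB10*.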

Other observations

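Antigen presentation genes, which share the interferon response with the immunoproteasome subunits, were called higher with si025 in 4 of the 7 tested (12 listed; 32.9% of all genes were higher). With si033 none was higher (0 also at an unadjusted *p* below 0.05) and *ERAP1* was lower, and in the direct contrast 6 of 7 were higher with si025 than with si033 (31.2% of all genes). *NLRC5*, the activator of MHC class I genes, had 0.498 ± 0.0312 CPM in control, 1.73 ± 0.533 with si025 and 0.659 ± 0.0376 with si033 (log2 fold change 1.85 with si025, adjusted *p* = 1.07e-05, edgeR's quasi-likelihood test). *B2M* rose from 60.5 to 76.4 CPM with si025 (0.33, adjusted *p* = 0.00016). *ERAP1*, which trims peptides for MHC class I, fell from 46.5 ± 0.205 to 26.9 ± 2.06 CPM with si033 (-0.77, adjusted *p* = 4.45e-09). *TAP1* was at 0 in every library and *TAPBP* at no more than 1 count, and both lie in the region around *PSMB8* described above.

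Of 15 genes for ubiquitin supply and delivery, 5 were lower and 1 higher with si025 (28.8% and 32.9% of all genes), and 6 were lower and 3 higher with si033 (27.8% and 26.9%), so the decreases were near the share over all genes with si025. The unfoldase *VCP*, which extracts ubiquitylated proteins, fell from 664 ± 14.3 CPM to 530 ± 9.11 with si025 and 542 ± 9.09 with si033 (log2 fold changes -0.32 and -0.29, adjusted *p* = 1.45e-07 and 9.63e-07). Its cofactor *NPLOC4* rose from 134 ± 2.31 CPM to 208 ± 10.9 and 216 ± 9.35 CPM (0.63 and 0.70, adjusted *p* = 8.88e-11 and 2.59e-11).

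Within the si025 group, replicate 2 had the highest and replicate 1 the lowest mean RPKM in 6 of 6 classes of proteasome genes. In the alpha ring these were 121 and 108 RPKM, in libraries of 19955145 and 12662828 counts. Replicate 3 had the most counts of the group (22436104) and lay between them at 114 RPKM.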
